A study of Homo sapiens with 4 samples.

Results

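The library titled shPJA/TGFb1 was set against the library titled shPJA1, gene by gene, to ask which transcripts differ when TGF-beta1 is added to HepG2 cells that carry a hairpin against PJA1. The genes compared were those whose mean over the 4 libraries of the series reached a normalized count of 20, which kept 8575 of 23368 gene symbols. There was 1 library on each side, so no difference between them has a replicate check.

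HepG2 cells are a line from a human liver tumour that still makes many hepatocyte proteins. In the shPJA/TGFb1 library the title names the PJA1 hairpin and TGFb1, and the growth protocol gives TGF-beta1 at 200 pM for 1 hour. The shPJA1 library came from cells infected with a lentivirus carrying a short hairpin RNA against PJA1, with no TGFb1 named. The TGFb1 library came from cells labelled as treated with TGFb1, and the labels do not say whether they carried a control hairpin. The shCtrl library came from cells infected with a control hairpin. The labels of the shPJA/TGFb1 library conflict, because its treatment label says water and names no hairpin, and the design text of the series names a plain HepG2 control where a combined treatment would stand. The library is called here by its title, and every direction drawn from it carries this conflict.

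TGF-beta1 binds a pair of receptor kinases, TGFBR2 and TGFBR1, which phosphorylate SMAD2 and SMAD3. These join SMAD4, enter the nucleus and bind short DNA boxes beside other factors, so that target genes such as SMAD7 are switched on within an hour, and SMAD7 then restrains the receptors. PJA1 is a RING-type E3 ubiquitin ligase that has been linked to the turnover of SMAD3 and of the adaptor SPTBN1, and in hepatocytes TGF-beta is known for growth arrest and for inducing matrix genes.

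The deposited values behave as reads divided by a size factor for each library and are called normalized counts. They are not scaled by transcript length, so levels are compared between libraries and not between genes. Reads assigned to genes numbered 990698 in shPJA/TGFb1, 1784689 in shPJA1, 2848665 in TGFb1 and 1363318 in shCtrl. A count of 3 reads corresponds to a normalized count of 4.89 in shPJA/TGFb1 and 2.70 in shPJA1. All 16 hepatocyte markers had reads in every library, with a summed normalized count of 39786 to 45551 and APOB highest. Of 21 leukocyte markers 10 were at 0 in all 4 libraries, among them PTPRC and CD3E, and LYZ, at 978 to 1343, made up most of the sum of 1133 to 1572. The 12 endothelial markers summed to 31.0 to 48.6, with CDH5 and KDR at 0 throughout, and the 14 stellate and fibroblast markers summed to 185 to 199, with ACTA2 at 175 to 187 and 6, DCN and LUM among them, at 0 throughout. In bulk RNA, fewer cells of a type and less RNA per cell cannot be told apart, and the part of other cell types in the results was not tested.

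PJA1, the target of the hairpin, had a normalized count of 9.78 in shPJA/TGFb1 (6 reads), 15.3 in shPJA1 (17 reads), 38.2 in TGFb1 and 50.3 in shCtrl. It was low in both libraries whose titles name the hairpin, which goes against a treatment label that names no hairpin. The PJA1 level does not bear on whether water or TGFb1 was added. Between them its ratio was 0.639 (0.206 to 1.7), where the bracket here and below is the exact 95% interval of a ratio of read counts and covers counting error only.

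Sequence around the starts of TGF-beta targets that were higher in shPJA/TGFb1, with ID3 added, is shown first. SMAD3 and SMAD4 bind the letters CAGAC, the SMAD box. Only windows that held a match are printed, whatever the size of the gene's ratio. RefSeq promoters (GRCh38.p14, 250 bases before to 50 after a start) were searched on both strands for that box and for the TEAD site ACATTCC, through which CTGF is also driven. Matches are in capitals, and GTCTG and GGAATGT are the same letters read on the other strand. CTGF lies on the minus strand at chr6:131951323-131951622, with a SMAD box at -177 to -173 and a TEAD site at -95 to -89 from its start. SMAD7 is shown at chr18:48950916-48951215, with boxes that begin at -217 and -128, and at its second start at chr18:48949284-48949583, with a box that begins at -193, both on the minus strand. ID3 lies on the minus strand at chr1:23559452-23559751, with a box at -147 to -143.
CTGF: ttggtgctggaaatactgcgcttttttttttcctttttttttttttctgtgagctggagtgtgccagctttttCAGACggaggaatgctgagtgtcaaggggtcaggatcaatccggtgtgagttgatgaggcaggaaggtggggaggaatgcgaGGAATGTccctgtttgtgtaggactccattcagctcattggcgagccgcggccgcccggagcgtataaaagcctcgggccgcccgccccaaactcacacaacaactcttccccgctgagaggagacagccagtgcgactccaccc
SMAD7 start 1: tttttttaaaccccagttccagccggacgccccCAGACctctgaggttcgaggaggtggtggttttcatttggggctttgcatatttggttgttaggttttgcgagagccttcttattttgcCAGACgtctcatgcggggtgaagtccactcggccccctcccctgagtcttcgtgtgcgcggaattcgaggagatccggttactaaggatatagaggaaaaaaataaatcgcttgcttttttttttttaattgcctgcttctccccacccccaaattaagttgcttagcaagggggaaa
SMAD7 start 2: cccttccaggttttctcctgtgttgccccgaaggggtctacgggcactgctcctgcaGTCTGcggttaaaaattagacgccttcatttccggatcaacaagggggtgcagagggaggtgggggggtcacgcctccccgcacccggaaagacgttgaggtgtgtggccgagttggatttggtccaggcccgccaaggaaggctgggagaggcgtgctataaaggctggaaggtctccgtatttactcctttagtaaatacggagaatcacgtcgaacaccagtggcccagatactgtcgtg
ID3: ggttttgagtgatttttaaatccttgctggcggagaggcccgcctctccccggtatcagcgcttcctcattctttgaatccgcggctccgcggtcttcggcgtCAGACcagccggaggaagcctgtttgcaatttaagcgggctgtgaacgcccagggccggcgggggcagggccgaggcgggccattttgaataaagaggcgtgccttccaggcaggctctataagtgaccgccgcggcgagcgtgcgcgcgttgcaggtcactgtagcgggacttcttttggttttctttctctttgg
Neither motif was found in the windows of GADD45B, JUNB, the 3 starts of SGK1 or the third start of SMAD7, and CYR61 and PDGFB were not matched in the table. The SMAD box is a common string. It was present in 45.3% of 35116 promoters of the table, in 42.3% of the 9479 promoters matched to the genes compared, and in 43.7% of the 197 promoters matched to genes at least 1.5-fold higher in shPJA/TGFb1. The TEAD site was present in 3.46%, 2.25% and 4.57% of the same sets. The SMAD palindrome GTCTAGAC, the longer CAGA box AGCCAGACA, the AP-1 site TGANTCA, the CRE TGACGTCA and the CArG box were also searched and were not found in these windows. They were present in 0.202%, 0.288%, 7.71%, 1.85% and 1.29% of all promoters of the table. A match describes the letters of the window only.

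A gene is called higher or lower here when its ratio was at least 1.5-fold from 1 and its interval excluded 1. By that rule 177 genes (2.06% of those compared) were higher in shPJA/TGFb1 than in shPJA1 and 184 (2.15%) were lower, together 361 (4.21%). At 2-fold there were 40 higher (0.466%) and 59 lower (0.688%). The median log2 ratio was 0.0036 over all genes. The calls lay among modestly expressed genes, with 53 and 72 of the higher calls in the 2 lowest of 5 equal bins by mean normalized count and 2 in the highest bin. By its construction a 95% interval may miss in up to 5% of genes, which is 429 of 8575, while 925 genes had an interval that excluded 1 at any fold (506 above and 419 below). Many single calls are therefore within what counting error allows.

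**Figure D1:**
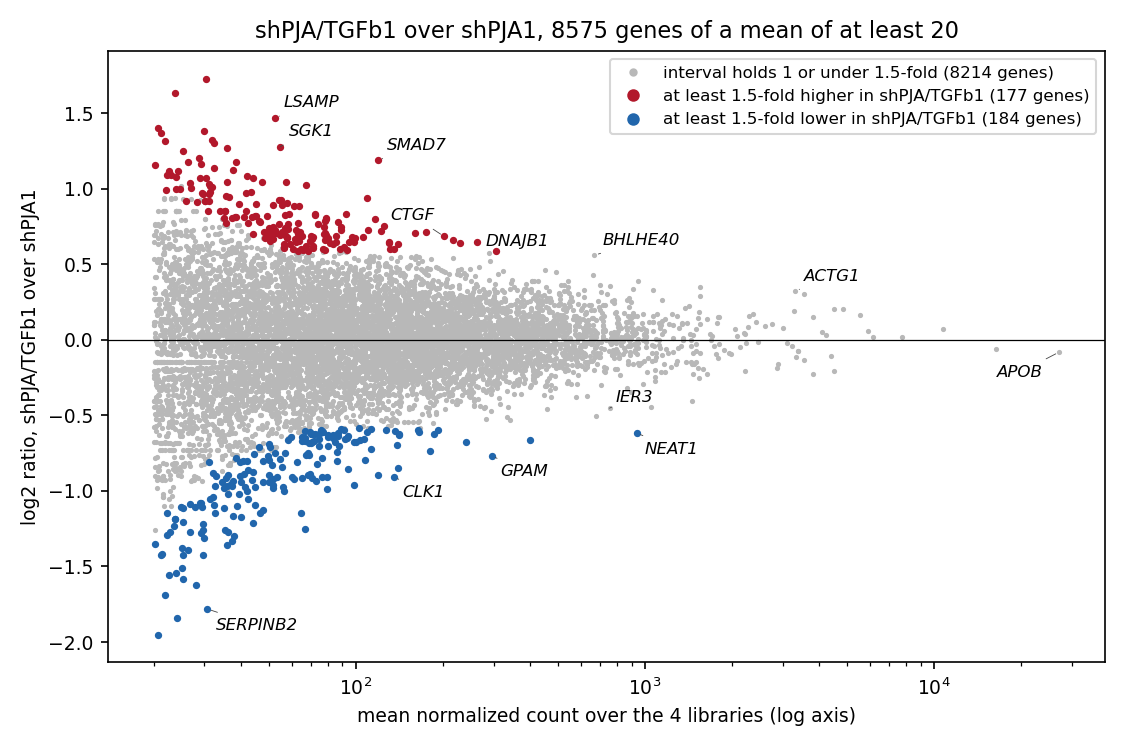
Log2 ratio of normalized counts, shPJA/TGFb1 over shPJA1 (y axis), against the mean normalized count over the 4 libraries (x axis, log scale), with 1 point for each of 8575 genes. The 177 genes called higher are red, the 184 called lower are blue, and the spread narrows as the mean rises.

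Some immediate targets of TGF-beta were higher in shPJA/TGFb1. Of 37 TGF-beta/SMAD3 target genes that were compared (of 55 listed), 7 were called higher and 0 lower, beside 2.06% and 2.15% of all genes. Their median log2 ratio was 0.17, and 31 of 37 were above 1 (4332 of 8575 over all genes). The interval lay wholly above 1, at any fold, in 15 of the 37 and below 1 in 1, against 5.9% and 4.89% of all genes. Intervals narrow as the mean normalized count rises, and these shares of all genes are not matched for level. The list's median stayed between 0.15 and 0.17 under every scaling and pseudocount tried and with the GC trend removed, that is, after a smooth trend on transcript GC content was taken out of each library. In TGFb1 over shCtrl, libraries that share nothing with the first pair, 9 of the 37 were called higher and 1 lower, with a median of 0.13. Genes called there made up 2.75% (higher) and 4.28% (lower) of all genes. The calls higher in both pairs numbered 5 in the list: SMAD7, SGK1, CYR61, CTGF and GADD45B. The list was chosen with earlier results of these data known, so its counts are not an independent check.

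SMAD7, the inhibitory SMAD that blocks TGFBR1, had a normalized count of 158 in shPJA/TGFb1, 69.3 in shPJA1, 168 in TGFb1 and 83.0 in shCtrl. Its ratio was 2.28 (1.67 to 3.12) in shPJA/TGFb1 over shPJA1. It was high in both libraries whose titles name TGFb1, which goes against the water label. This rests on 1 gene. Of the 6 compared genes listed to check the label, 3 were called higher in each pair, and SMAD7 alone in both. Of all genes, 2.06% were called higher in shPJA/TGFb1 over shPJA1 and 2.75% in TGFb1 over shCtrl. In shPJA/TGFb1 over shPJA1 all 6 label-check genes had a ratio above 1. In TGFb1 over shCtrl 4 of them were above 1 and 2 below. SGK1, a kinase that regulates ion channels, had 83.1 in shPJA/TGFb1, 34.2 in shPJA1, 66.1 in TGFb1 and 36.2 in shCtrl, at a ratio of 2.43 (1.57 to 3.80). CYR61, a secreted matricellular protein, had 145 in shPJA/TGFb1, 75.6 in shPJA1, 138 in TGFb1 and 77.1 in shCtrl, at a ratio of 1.92 (1.41 to 2.62). For both genes the libraries titled with TGFb1 stood above the others. CTGF, its relative and a mediator of fibrosis, had 272 in shPJA/TGFb1, 169 in shPJA1, 231 in TGFb1 and 136 in shCtrl, at a ratio of 1.61 (1.30 to 1.99). GADD45B, a stress sensor that acts on p38 signalling, had 47.3 in shPJA/TGFb1, 18.9 in shPJA1, 41.6 in TGFb1 and 19.9 in shCtrl, at a ratio of 2.50 (1.38 to 4.61). Its counts were the lowest of the 5, with 29 reads in shPJA/TGFb1 and 21 in shPJA1.

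**Figure D2:**
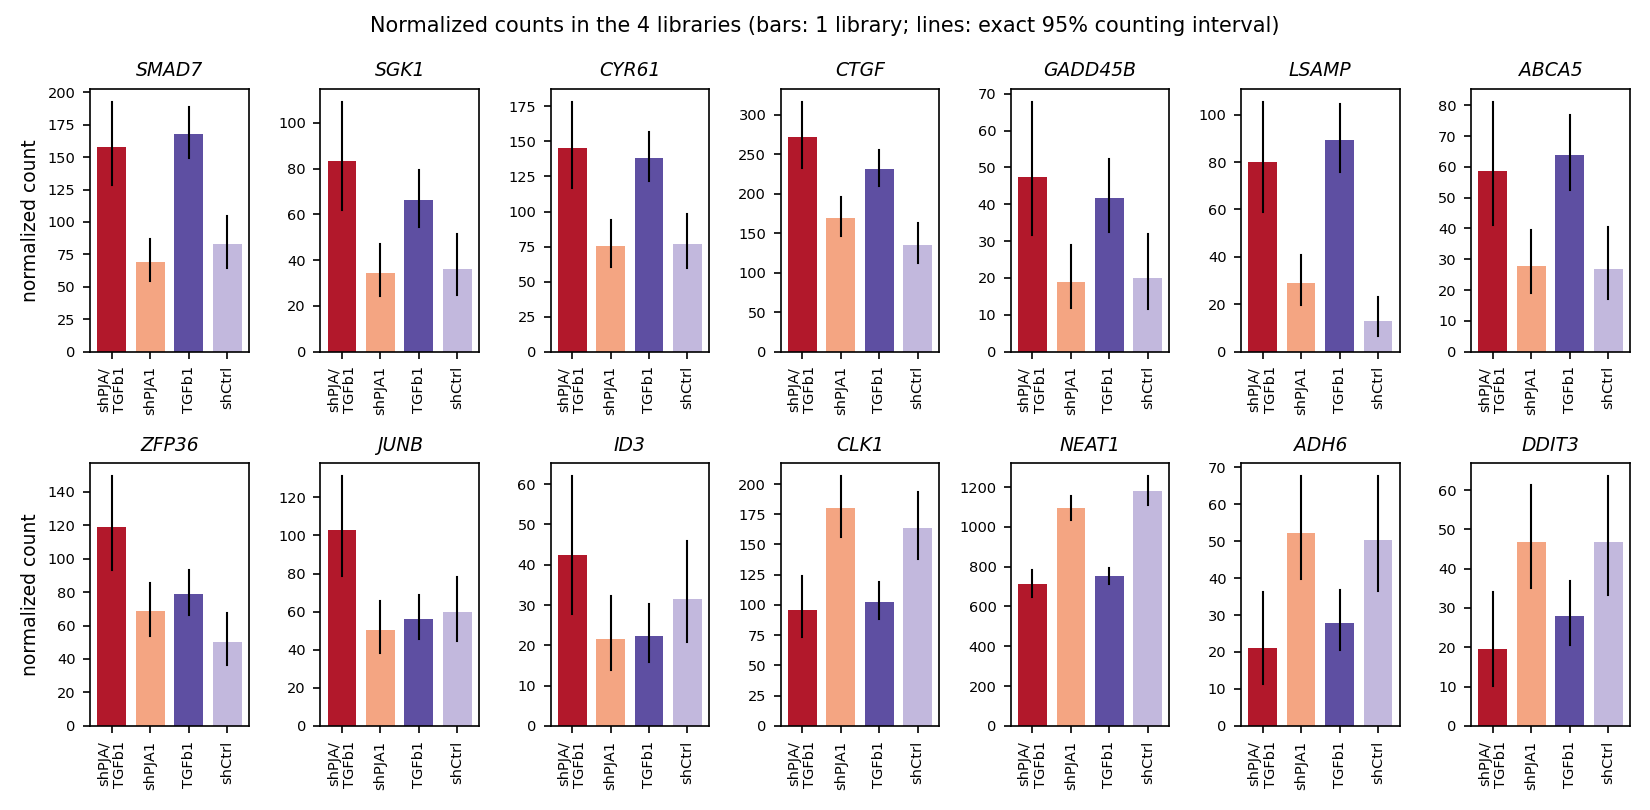
Normalized counts of 14 genes (y axes, starting at 0) in the shPJA/TGFb1, shPJA1, TGFb1 and shCtrl libraries (x axes), with 1 library per bar and lines for the exact 95% counting interval. SMAD7 stands at 158 and 168 in the libraries titled with TGFb1, against 69.3 and 83.0 in the others, while NEAT1 stands at 714 and 752, against 1093 and 1182.

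Several targets showed a smaller ratio. BHLHE40, a transcriptional repressor of the clock, had 817 in shPJA/TGFb1, 554 in shPJA1, 752 in TGFb1 and 552 in shCtrl, at a ratio of 1.47 (1.31 to 1.66). KLF10, a TGF-beta-inducible zinc finger factor, had 512 in shPJA/TGFb1, 372 in shPJA1, 548 in TGFb1 and 373 in shCtrl, at a ratio of 1.38 (1.18 to 1.60). Both are abundant, and each was highest in the libraries titled with TGFb1 although under the 1.5-fold line. EDN1, which encodes endothelin, had a ratio of 1.5 in shPJA/TGFb1 over shPJA1 but an interval that holds 1 (0.835 to 2.67), and 2.03 (1.30 to 3.27) in TGFb1 over shCtrl. SKIL, a SMAD corepressor, had a ratio of 1.14 (0.916 to 1.41), against 1.59 (1.31 to 1.94) in TGFb1 over shCtrl. Once the GC trend was removed these SKIL ratios were 1.24 (0.998 to 1.54) and 1.34 (1.10 to 1.63). ATF3, a stress-induced factor that works with SMAD3, had 1.13 (0.778 to 1.62), against 1.67 (1.25 to 2.27). Whether these genes differ between the pairs was not tested.

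JUNB, PDGFB and ID3 were called higher in shPJA/TGFb1 over shPJA1 and were not called in TGFb1 over shCtrl, and the difference between the pairs was not tested. JUNB, an AP-1 subunit, had 103 in shPJA/TGFb1, 50.4 in shPJA1, 56.4 in TGFb1 and 59.6 in shCtrl, at a ratio of 2.04 (1.40 to 2.97). PDGFB, a growth factor chain, had 48.9 in shPJA/TGFb1, 19.8 in shPJA1, 31.9 in TGFb1 and 29.2 in shCtrl, at a ratio of 2.47 (1.38 to 4.49). ID3, an inhibitor of basic helix-loop-helix factors and a target of both TGF-beta and BMP signals, had 42.4 in shPJA/TGFb1, 21.6 in shPJA1, 22.2 in TGFb1 and 31.6 in shCtrl, at a ratio of 1.96 (1.08 to 3.57). In each of these genes shPJA/TGFb1 was the highest of the 4 libraries and shPJA1 the lowest. A call on this pair favours that order. Of the 177 genes called higher, shPJA/TGFb1 was the highest library in 158 and shPJA1 the lowest in 118. ID1 had a ratio of 1.39 with an interval that holds 1 (0.953 to 2.02). PMEPA1, another standard target, had 5 reads in shPJA/TGFb1 and 6 in shPJA1 and fell outside the genes compared.

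**Figure D3:**
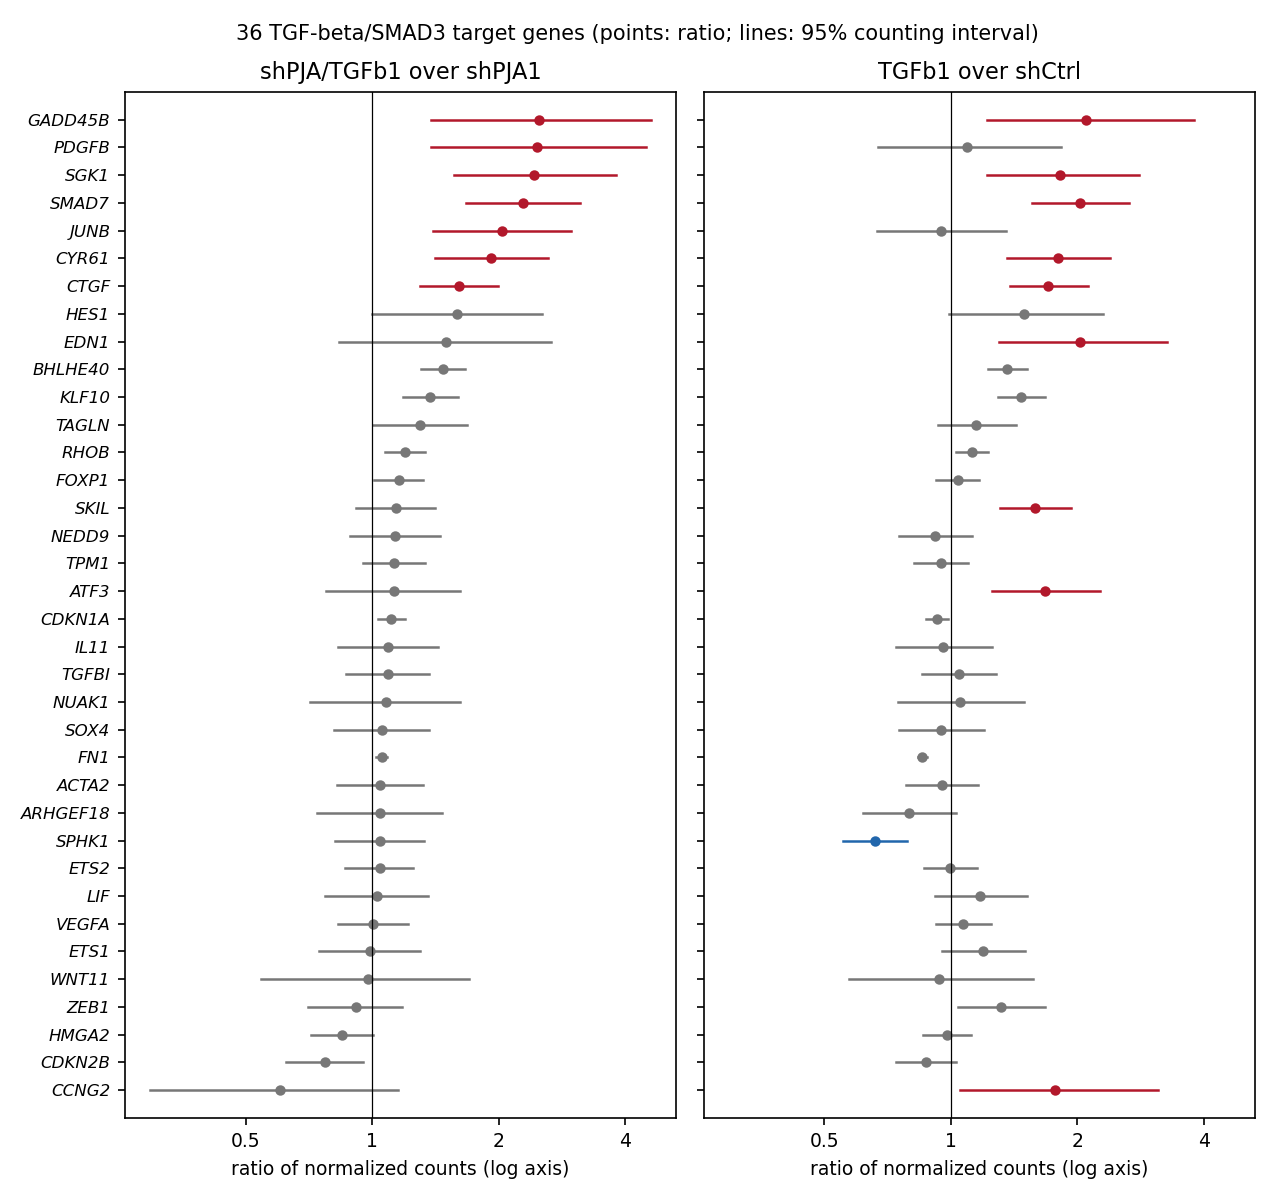
Ratios of normalized counts (x axes, log scale) with 95% counting intervals for 36 of the 37 TGF-beta/SMAD3 target genes (y axis), in shPJA/TGFb1 over shPJA1 (left) and TGFb1 over shCtrl (right). Red marks genes called higher and blue genes called lower, 7 and 0 on the left and 9 and 1 on the right.

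Few components of the pathway were called, and few of all genes were, at 2.06% higher and 2.15% lower. Of 20 receptors and SMAD transducers 0 were called in either direction, with a median log2 ratio of 0.04. TGFBR2, the ligand-binding receptor, had 2244 in shPJA/TGFb1 and 2185 in shPJA1, at a ratio of 1.03 (0.961 to 1.10). SMAD3 had 509 in shPJA/TGFb1 and 466 in shPJA1, at a ratio of 1.09 (0.944 to 1.26). The coreceptor TGFBR3, betaglycan, had 305 in shPJA/TGFb1 and 391 in shPJA1, at a ratio of 0.780 (0.654 to 0.928). An interval wholly below 1 was found in 1 of the 20 and wholly above 1 in 0, beside 4.89% and 5.9% of all genes. Among 22 feedback and corepressor genes SMAD7 was the only call, with a median of 0.08. BAMBI, a pseudoreceptor, had 47.3 in shPJA/TGFb1 and 27.9 in shPJA1, at a ratio of 1.69 with an interval that holds 1 (0.985 to 2.90). Among 11 ligands and traps FST was the only call. FST, which encodes the activin trap follistatin, had 363 in shPJA/TGFb1, 242 in shPJA1, 353 in TGFb1 and 265 in shCtrl, at a ratio of 1.5 (1.25 to 1.80). FST lay on the 1.5-fold line and was not called when scaled by total reads (1.49) or by upper quartile (1.48), nor with either pseudocount. That list's median of 0.17 became 0.06 once the GC trend was removed.

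Early-response genes were higher in part. Of 29 immediate early factors 3 were called higher and 0 lower, beside 2.06% and 2.15% of all genes, with a median log2 ratio of 0.14. In TGFb1 over shCtrl 3 were called higher and 4 lower, beside 2.75% and 4.28% of all genes. In shPJA/TGFb1 over shPJA1 the calls were JUNB, ZFP36 and CSRNP1. ZFP36, which degrades AU-rich mRNAs, had 119 in shPJA/TGFb1, 68.4 in shPJA1, 79.2 in TGFb1 and 50.3 in shCtrl, at a ratio of 1.74 (1.24 to 2.43). CSRNP1, a nuclear factor induced by AXIN1, had 106 in shPJA/TGFb1, 59.4 in shPJA1, 113 in TGFb1 and 92.3 in shCtrl, at a ratio of 1.78 (1.25 to 2.55). CSRNP1 was lowest in shPJA1, and in TGFb1 over shCtrl its interval held 1 (0.936 to 1.61). IER3, an early gene that modulates apoptosis, went the other way, with 603 in shPJA/TGFb1, 825 in shPJA1, 390.1 in TGFb1 and 1198 in shCtrl. Its ratio was 0.731 (0.646 to 0.826) in shPJA/TGFb1 over shPJA1 and 0.326 (0.295 to 0.359) in TGFb1 over shCtrl. EGR1, a growth factor-induced zinc finger factor, had a ratio of 0.933 (0.831 to 1.05) beside 0.555 (0.505 to 0.609) in TGFb1 over shCtrl. Among 21 YAP/TEAD targets 2 were called higher, CTGF and CYR61, and 1 lower, beside 2.06% and 2.15% of all genes, at a median log2 ratio of 0.15, or 0.09 with the GC trend removed. The lower gene was MYOF, which encodes the membrane repair protein myoferlin, with 79.9 in shPJA/TGFb1, 126 in shPJA1, 109.9 in TGFb1 and 51.4 in shCtrl. Its ratio was 0.634 (0.448 to 0.883) in shPJA/TGFb1 over shPJA1 and 2.14 (1.53 to 3.04) in TGFb1 over shCtrl.

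The fit that uses all 4 libraries took the hairpin and TGFb1, both by title, as additive terms. edgeR's quasi-likelihood test called 4 of 10210 genes (0.0392%) for TGFb1 at a Benjamini-Hochberg adjusted p under 0.05. LSAMP, a neural cell adhesion protein, rose by a log2 change of 2.03 ± 0.30 (SE; adjusted p = 8.587e-08), and SMAD7 rose by 1.09 ± 0.22 (adjusted p = 0.001411). IER3 changed by a log2 of -1.06 ± 0.17 (adjusted p = 9.049e-07), and RASD1, a small GTPase, by -0.94 ± 0.20 (adjusted p = 0.01152). All 4 lay on the same side of 1 in both pairs, but the TGFb1 term draws on both pairs, so this is not a separate check. The fit gives each gene 1 TGFb1 term for both pairs, and that term need not describe either pair. IER3 had a ratio of 0.731 (0.646 to 0.826) in shPJA/TGFb1 over shPJA1. In TGFb1 over shCtrl it had 0.326 (0.295 to 0.359), and these intervals do not overlap. The fit has 1 residual degree of freedom, which is the departure of the 4 libraries from additive terms. It shares this spread over genes, at a coefficient of variation of 10.9%. Its p-values therefore do not measure spread between replicates, of which there are none. DESeq2 on the same model called 0 genes, with 23 at an unadjusted p under 0.05, against 383 for edgeR. LSAMP had 79.9 in shPJA/TGFb1, 28.8 in shPJA1, 89.4 in TGFb1 and 12.9 in shCtrl. Its ratio was 2.77 (1.74 to 4.47) in shPJA/TGFb1 over shPJA1 and 6.95 (3.78 to 14.2) in TGFb1 over shCtrl. RASD1 had 134 in shPJA/TGFb1, 194 in shPJA1, 75.2 in TGFb1 and 184 in shCtrl, at a ratio of 0.687 (0.526 to 0.890).

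Genes beyond the TGF-beta lists were also called higher. PDGFA, the partner chain of PDGFB, had 42.4 in shPJA/TGFb1, 16.2 in shPJA1, 31.3 in TGFb1 and 29.2 in shCtrl, at a ratio of 2.61 (1.38 to 5.06). ARFGAP2, a regulator of Golgi coat removal, had 58.7 in shPJA/TGFb1, 24.3 in shPJA1, 31.3 in TGFb1 and 29.2 in shCtrl, at a ratio of 2.41 (1.43 to 4.13). In both genes shPJA1 was the lowest library and shPJA/TGFb1 the highest, as in 118 and 158 of the 177 genes called higher. SPON1, an extracellular matrix protein, had 57.0 in shPJA/TGFb1 and 25.2 in shPJA1, at a ratio of 2.26 (1.34 to 3.86), and TINAGL1, a matricellular protein, had 78.2 in shPJA/TGFb1 and 37.8 in shPJA1, at 2.07 (1.34 to 3.21). DNAJB1, a co-chaperone of HSP70, had 326 in shPJA/TGFb1, 208 in shPJA1, 294 in TGFb1 and 219.7 in shCtrl, at a ratio of 1.57 (1.29 to 1.90). It was the only call among 34 heat shock and chaperonin genes, where 4.21% of all genes were called. The median log2 ratio of that list was -0.04, turning to 0.0065 with the GC trend removed. DNAJB1 was then at 1.49 and no longer called.

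Among the genes lower in shPJA/TGFb1, SERPINB2, an inhibitor of plasminogen activators, had 14.7 in shPJA/TGFb1 (9 reads), 50.4 in shPJA1 (56 reads), 30.8 in TGFb1 and 26.9 in shCtrl, at a ratio of 0.291 (0.127 to 0.593). shPJA/TGFb1 was the lowest and shPJA1 the highest of the 4. Of the 184 genes called lower, shPJA/TGFb1 was the lowest library in 173 and shPJA1 the highest in 127. GPAM, which starts triglyceride synthesis, had 231 in shPJA/TGFb1, 393 in shPJA1, 246 in TGFb1 and 309 in shCtrl, at a ratio of 0.588 (0.483 to 0.712). NEAT1, the long RNA that scaffolds paraspeckles, had 714 in shPJA/TGFb1, 1093 in shPJA1, 752 in TGFb1 and 1182 in shCtrl, at a ratio of 0.653 (0.584 to 0.729). CLK1, a kinase of splicing factors, had 96.2 in shPJA/TGFb1, 180.1 in shPJA1, 103 in TGFb1 and 164 in shCtrl, at a ratio of 0.534 (0.392 to 0.717). NEAT1 and CLK1 were both lower in the libraries titled with TGFb1, by similar ratios in the pairs. NEAT1 was at 0.672 and no longer called with the GC trend removed. CLK4, a relative of CLK1, had 65.2 in shPJA/TGFb1 and 118 in shPJA1, at a ratio of 0.553 (0.378 to 0.793), and 1.11 (0.843 to 1.46) in TGFb1 over shCtrl. These kinases were the only calls among 48 splicing kinases, SR proteins and hnRNPs, close to the 4.21% of all genes. The median log2 ratio of that list was -0.08. KRIT1, an endothelial junction regulator, had 37.5 in shPJA/TGFb1 and 82.8 in shPJA1, at a ratio of 0.453 (0.273 to 0.721).

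TFAM and TFB2M were among the 20 named genes with the lowest upper bound. TFAM, which packages mitochondrial DNA, had 99.4 in shPJA/TGFb1, 179 in shPJA1, 142 in TGFb1 and 138 in shCtrl, at a ratio of 0.555 (0.409 to 0.743). TFB2M, a mitochondrial transcription factor, had 31.0 in shPJA/TGFb1, 67.5 in shPJA1, 56.4 in TGFb1 and 36.2 in shCtrl, at a ratio of 0.459 (0.262 to 0.767). In both genes shPJA1 was the highest library, as in 127 of the 184 genes called lower. Over 70 oxidative phosphorylation genes 3 were called higher and 2 lower, with a median log2 ratio of 0.04, and over 66 mitochondrial ribosomal protein genes 3 higher and 2 lower, at -0.05. Both lists stand beside 2.06% and 2.15% of all genes. SDHB and SDHD, subunits of the same complex, were called in opposite directions, at 1.57 (1.12 to 2.18) and 0.508 (0.272 to 0.897).

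Genes of hepatocyte function were called in both directions, and each count of this paragraph stands beside 2.06% higher and 2.15% lower of all genes. Of 24 drug-metabolising enzymes 0 were called higher and 3 lower, beside 2.06% and 2.15% of all genes, with a median log2 ratio of -0.04. The 3 were UGT1A1 and UGT2B7, which conjugate glucuronic acid, at ratios of 0.373 (0.139 to 0.854) and 0.467 (0.252 to 0.820), and ADH6, an alcohol dehydrogenase. ADH6 had 21.2 in shPJA/TGFb1, 52.2 in shPJA1, 27.9 in TGFb1 and 50.3 in shCtrl, at a ratio of 0.406 (0.204 to 0.749). Of 35 hepatocyte transcription factors 1 was called higher and 1, RORA, lower, at a median of -0.12. RORA, a nuclear receptor of the clock, had 31.0 in shPJA/TGFb1, 61.2 in shPJA1, 72.3 in TGFb1 and 42.1 in shCtrl. Of 38 secreted hepatocyte proteins 1 was called higher, the adhesion protein VTN, and 2 lower, the complement factor CFI and the anticoagulant PROS1. Neither CFI (0.698) nor PROS1 (0.694) was called with the GC trend removed, nor with a pseudocount of 5. The median log2 ratio of the secreted proteins was 0.01 and changed sign under 2 settings. DDIT3, the stress factor CHOP, had 19.6 in shPJA/TGFb1, 46.8 in shPJA1, 27.9 in TGFb1 and 46.8 in shCtrl, at a ratio of 0.418 (0.203 to 0.793). It was called beside VLDLR, a lipoprotein receptor, among 42 genes of endoplasmic reticulum and integrated stress, whose median log2 ratio was -0.0044.

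Cytosolic ribosomal protein genes were above 1 in 50 of 64, at a median log2 ratio of 0.11. Their interval lay wholly above 1 in 17 and below 1 in 0, beside 5.9% and 4.89% of all genes. The median log2 width of an interval was 1.86 in the lowest of 5 bins by mean and 0.47 in the highest. An abundant gene is therefore more often apart from 1 by its interval. The shares of all genes are not matched for level, here and for the actin genes below. The 4 called higher, beside 2.06% of all genes, were RPSA, RPS3A, RPS9 and RPL9, with ratios of 3.10 (1.54 to 6.49), 2.20 (1.22 to 4.01), 1.74 (1.26 to 2.41) and 1.76 (1.05 to 2.95). Ribosomal protein genes have many near-identical copies in the genome, so these ratios are uncertain where reads were split between copies. In TGFb1 over shCtrl 31 of the 64 were above 1, at a median of -0.03. Actin cytoskeleton genes were above 1 in 32 of 41, at a median of 0.11. Of these 11 had an interval wholly above 1, beside 5.9% of all genes. Of the 41, 17 were above 1 in TGFb1 over shCtrl, at a median of -0.07, or 0.03 with the GC trend removed. TPM2, a tropomyosin, was the only call in shPJA/TGFb1 over shPJA1, at a ratio of 0.463 (0.215 to 0.913), where 4.21% of all genes were called. Of 34 glycolysis and hypoxia genes 28 were above 1, at a median of 0.13. The only call, beside 4.21% of all genes, was ARNT, the partner of HIF1A, at 1.52 (1.16 to 1.97). It was lost with a pseudocount of 5 (1.49) and with upper quartile scaling.

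Each of these lists of stress, growth and inflammation genes held at most 2 calls, and 4.21% of all genes were called. The lists ran from 10 to 30 genes, so the same count is not the same share. Of 30 NRF2 targets the heme-degrading enzyme HMOX1 was called higher, with 44.0 in shPJA/TGFb1, 22.5 in shPJA1, 31.3 in TGFb1 and 21.0 in shCtrl, at a ratio of 1.96 (1.09 to 3.51). Of 10 SGK and glucocorticoid responsive genes SGK1 and KLF9 were called higher, beside 2.06% of all genes. KLF9, a zinc finger factor, had 27 reads in shPJA/TGFb1 and 25 in shPJA1. Of 24 NF-kappaB targets the iron-binding protein LCN2 was called higher, with 139 in shPJA/TGFb1, 88.2 in shPJA1, 148 in TGFb1 and 148 in shCtrl, at a ratio of 1.57 (1.16 to 2.12). LCN2 was low in shPJA1 and alike in the other 3 libraries, and at 1.47 it was no longer called with the GC trend removed. Of 23 MAPK feedback genes SPRY1, which dampens receptor kinase signals, was called lower at 0.595 (0.363 to 0.947). Of 29 DNA replication genes the nucleotide reductase subunit RRM2 was called higher at 1.61 (1.11 to 2.34) and ORC3, of the origin complex, lower at 0.522 (0.273 to 0.942). Of 25 mitosis genes the condensin SMC2 was called lower at 0.663 (0.452 to 0.956), but not with the GC trend removed, at 0.708, nor with a pseudocount of 5. None of 26 Wnt and beta-catenin targets was called in either direction.

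Genes of junctions and matrix gave 3 calls beside LSAMP, where 2.06% of all genes were called higher and 2.15% lower. CLDN4, a tight junction claudin, had 277 in shPJA/TGFb1, 177 in shPJA1, 269.9 in TGFb1 and 194 in shCtrl, at a ratio of 1.56 (1.26 to 1.93), and was the only call among 27 epithelial junction genes. It was higher in both libraries titled with TGFb1, and in TGFb1 over shCtrl its ratio was 1.39 (1.16 to 1.67). With the GC trend removed its ratio in shPJA/TGFb1 over shPJA1 was 1.45, and no gene of the list was called. Of 26 matrix and collagen genes MATN3, a cartilage matrix protein, and AGRN, a heparan sulfate proteoglycan, were called higher at 1.81 (1.10 to 2.98) and 1.62 (1.05 to 2.50). AGRN, at 1.44, was no longer called with the GC trend removed. Of 79 RING and TRIM ubiquitin ligases 2 were called higher and 3 lower, close to the 2.06% and 2.15% of all genes, with a median log2 ratio of -0.02. The lower ones were RNF25, RNF14 and RNF146, at 0.468 (0.246 to 0.837), 0.510 (0.294 to 0.847) and 0.573 (0.323 to 0.974). RNF146 was no longer called with the GC trend removed, at 0.590. PJA2, the paralogue of PJA1, had 346 in shPJA/TGFb1 and 399.8 in shPJA1, at a ratio of 0.864 with an interval that holds 1 (0.730 to 1.02). Of 230 ZNF genes, mostly zinc finger repressors, 4 were called higher and 13 lower, beside 2.06% and 2.15% of all genes, at a median log2 ratio of -0.08. With the GC trend removed 4 were called higher and 7 lower, beside 1.55% and 2.04%.

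A stricter interval holds for all 8575 genes together. At that level 25 genes had an interval that excluded 1, 15 above and 10 below, of which SMAD7 and DNAJB1 were at least 1.5-fold higher and GPAM, OBFC2A and NEAT1 at least 1.5-fold lower. OBFC2A, which encodes a single-stranded DNA binding protein, had 329 in shPJA/TGFb1, 520.4 in shPJA1, 346 in TGFb1 and 411 in shCtrl, at a ratio of 0.633 (0.536 to 0.744), and at 0.672 with the GC trend removed. The others were abundant genes with small ratios. ACTG1 and ACTB, the cytoplasmic actins, had ratios of 1.25 (1.19 to 1.32) and 1.23 (1.17 to 1.30), and 0.953 (0.911 to 0.996) and 0.935 (0.894 to 0.977) in TGFb1 over shCtrl. With the GC trend removed both were at 1.16 in shPJA/TGFb1 over shPJA1. SDC4, a heparan sulfate proteoglycan, had 1056 in shPJA/TGFb1, 808 in shPJA1, 841 in TGFb1 and 1081 in shCtrl, at ratios of 1.31 (1.18 to 1.45) in shPJA/TGFb1 over shPJA1 and 0.778 (0.716 to 0.846) in TGFb1 over shCtrl. On the lower side TXNIP, which binds thioredoxin, had 533 in shPJA/TGFb1, 756 in shPJA1, 645 in TGFb1 and 777 in shCtrl, at a ratio of 0.705 (0.618 to 0.802). KCNQ1OT1, a nuclear RNA antisense to KCNQ1, had 906 in shPJA/TGFb1, 1233 in shPJA1, 862 in TGFb1 and 1189.8 in shCtrl, at a ratio of 0.735 (0.665 to 0.812). The counting is not stated to use strand, so KCNQ1OT1 reads cannot be told apart from those of KCNQ1. With the GC trend removed 17 genes passed, 13 of them shared with the 25, and SMAD7, BHLHE40, NEAT1, OBFC2A and GPAM were among the shared ones.

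**Figure D4:**
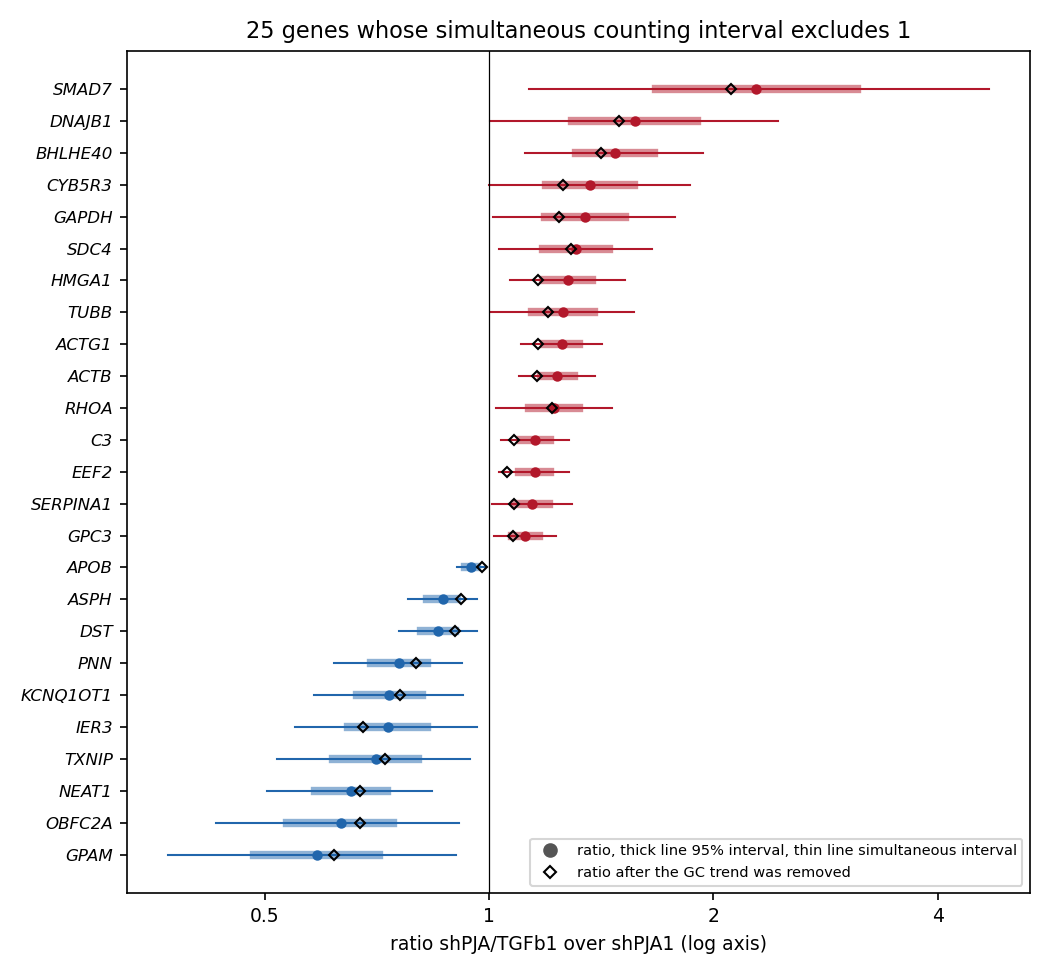
Ratios of shPJA/TGFb1 over shPJA1 (x axis, log scale) for the 25 genes (y axis) whose interval, set to hold for all 8575 genes together, excludes 1. Points are ratios, thick lines the 95% interval of each gene alone, thin lines the wider interval and diamonds the ratio with the GC trend removed; SMAD7 is highest at 2.28 and GPAM lowest at 0.588.

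GC content moved with the ratio. In 5 equal bins of genes from the lowest to the highest transcript GC content, the median log2 ratio of shPJA/TGFb1 over shPJA1 was -0.09, -0.05, 0.0067, 0.07 and 0.14. The genes called higher numbered 8, 14, 23, 44 and 84 in these bins, and those called lower 52, 45, 34, 28 and 18. In TGFb1 over shCtrl the medians ran the other way, at 0.21, 0.11, -0.0033, -0.09 and -0.16. Genes called higher had a median GC content of 56.3% and genes called lower one of 43.4%, beside 47% in all genes compared. After a smooth trend on GC content was removed from each library, 133 genes (1.55%) were called higher and 175 (2.04%) lower, and 116 of the 177 and 140 of the 184 were still called. All 7 TGF-beta/SMAD3 targets called higher were still among them, at a list median of 0.16. The part of GC content in the single ratios was not tested further.

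**Figure D5:**
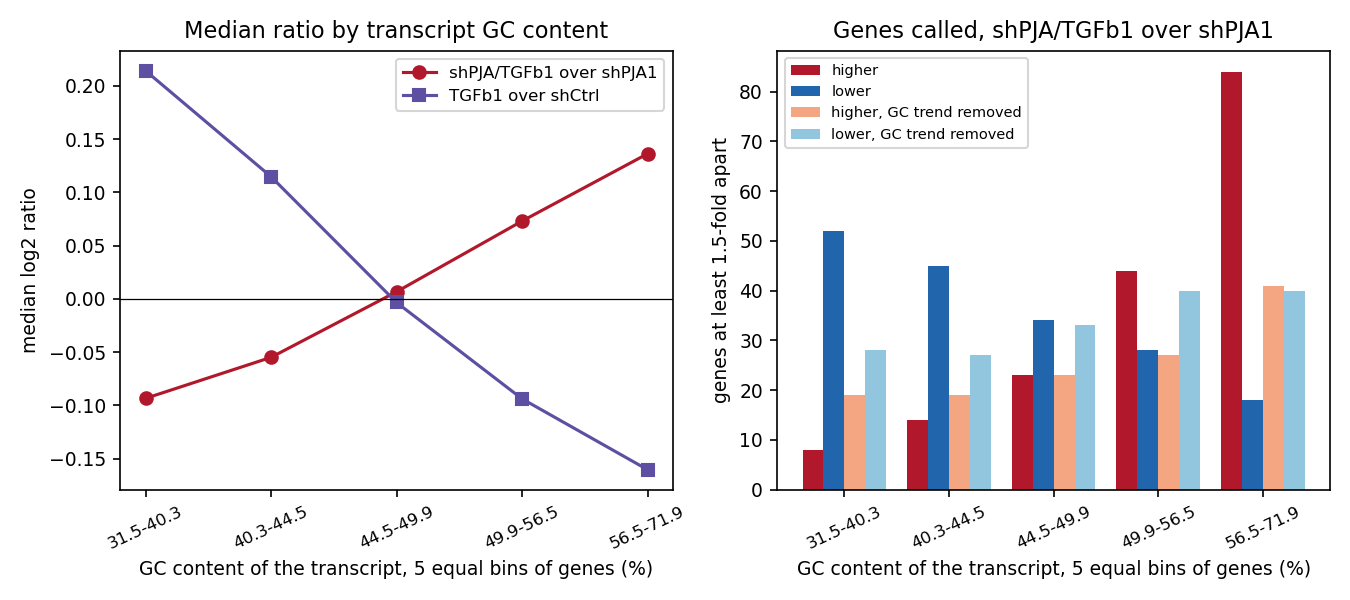
Left, median log2 ratio (y axis) in 5 equal bins of genes by transcript GC content (x axis, %). The medians run between -0.09 and 0.14 in shPJA/TGFb1 over shPJA1 and between 0.21 and -0.16 in TGFb1 over shCtrl. Right, number of genes called higher and lower in shPJA/TGFb1 over shPJA1 (y axis, from 0) in the same bins, before and after the GC trend was removed.

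Set beside the pair that shares no library with it, the comparison had 13 genes called higher in both, which is 7.34% of 177 and 5.51% of 236, and 10 called lower in both, 5.43% of 184 and 2.72% of 367. Among all genes 2.06% were called higher and 2.15% lower in shPJA/TGFb1 over shPJA1, and 2.75% and 4.28% in TGFb1 over shCtrl. With the deposited values the 10 lower genes are therefore close to the share among all genes. With the GC trend removed both counts were 12, of 133 called higher and 175 called lower, and 10 and 8 were the same genes. In TGFb1 over shCtrl 2.11% of all genes were then called higher and 3.25% lower. The 12 lower genes are then a larger share of the 175 than 3.25%. CMTM3, SLC36A4 and RPL9 then left the higher genes, and NEAT1 and ITGA10 the lower ones. The 13 held, besides the 5 targets, ZFP36 and LSAMP, the lipid transporter ABCA5, the thiamine transporter SLC19A2, the amino acid transporter SLC36A4, LCORL, CMTM3 and RPL9. ABCA5 had 58.7 in shPJA/TGFb1, 27.9 in shPJA1, 63.8 in TGFb1 and 26.9 in shCtrl, at a ratio of 2.10 (1.26 to 3.51). The 10 held NEAT1, CLK1, DDIT3, ADH6, the integrin ITGA10, C8orf4, C19orf80 and 3 uncharacterised loci. C19orf80, which encodes the lipoprotein lipase regulator ANGPTL8, had 26.1 in shPJA/TGFb1, 57.6 in shPJA1, 38.2 in TGFb1 and 65.5 in shCtrl, at a ratio of 0.453 (0.244 to 0.792). Over 8463 genes the log2 ratios of the pairs had a Pearson r of -0.07 and a Spearman rho of -0.11, and 0.03 and 0.01 with the GC trend removed. This describes genes within 4 libraries, and genes are not independent replicates.

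At the edge of the selection, CASC5 and BTN2A2 lay just inside a mean of 20, at 20.03 and 20.04, and FKBP11 and LMBR1L just outside, at 19.95 and 19.94. Their normalized counts in shPJA/TGFb1 and shPJA1 were 21.2 and 28.8 for CASC5, 19.6 and 22.5 for BTN2A2, 19.6 and 19.8 for FKBP11, and 22.8 and 21.6 for LMBR1L. The fewest reads behind a call were 32 over both libraries.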

How the data were processed

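Total RNA of 4 HepG2 samples was made into Illumina TruSeq libraries, per the labels' protocols. The submitters' processing notes name FastQC, Trimmomatic, TopHat2 2.0.10 and Cufflinks without further detail. The authors' genome build is not given in the sources used here. The deposited signal is named FPKM but is not length-scaled: in each library 100% of values were whole multiples of 1 step to within 1e-06 of a read, so the authors' values were read as counts divided by a size factor (0.614 in shPJA/TGFb1, 1.11 in shPJA1, 1.76 in TGFb1, 0.856 in shCtrl). The comparisons had been planned for either kind of value.

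Groups followed the titles. Members, the 48 gene lists and the rules were chosen with earlier results of these data known. With 1 library per condition there was no test of the pair: plain ratios carry an exact conditional 95% interval of 2 Poisson counts (scipy 1.17.1), which covers counting error only, as do the counting intervals per library. Genes had a mean of at least 20, and calls needed 1.5-fold and an interval that excludes 1. Genes are named by a rule: PJA1 and 7 label-check genes, the 20 with the highest lower bound and the 20 with the lowest upper bound (small RNAs and uncharacterised loci left out), up to 6 called members of each list, and 2 genes on each side of the mean of 20. The genes of the stricter interval, list members under 1.5-fold, genes called in both pairs, IER3, RASD1 and EGR1 were chosen after their values were seen.

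The design named a count fit as well. edgeR 4.0.16 in R 4.3.3 took the recovered reads as counts for 10210 genes of 40 reads or more (TMM, quasi-likelihood, Benjamini-Hochberg), and DESeq2 1.42.0 on the same model. GC content came from GENCODE release 29 transcripts, matched for 98.7% of genes, and a lowess trend (span 0.3) per library was removed as an alternative, with ratios of the unmatched genes left as they were. Promoters were matched by symbol to the RefSeq table. Other software was Python 3.11.15 with numpy 2.4.6, pandas 2.3.3, statsmodels 0.14.6 and matplotlib 3.10.9. The scripts were checked on simulated counts. Some genes that the rule names are not reported here, although they are in the counts.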

Additional observations from a re-analysis of the deposited data

Results flagged for a closer look

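Some genes were called in opposite directions by shPJA/TGFb1 over shPJA1 and by TGFb1 over shCtrl. There were 21 genes higher in the first pair and lower in the other, which is 11.9% of the 177, beside 4.28% of all genes called lower in the other. There were 9 genes lower in the first pair and higher in the other, which is 4.89% of the 184, beside 2.75% of all genes. With the GC trend removed these counts were 2 of 133 and 5 of 175, beside 3.25% and 2.11% of all genes. Of the genes named here BAX, ZNF768, MYOF and SRD5A1 were then still called in both pairs. The difference between the pairs was not tested, with 1 library per condition.

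Among named genes, the ratio of shPJA/TGFb1 over shPJA1 was 2.07 for ZNF768, 1.64 for NACC1, 1.94 for the apoptosis effector BAX, 2.65 for IFI35, 1.54 for the antiviral IFITM3, 1.76 for MRPS34 and 1.59 for PSMG3. In TGFb1 over shCtrl each of these 7 was called lower, at 0.453 for ZNF768, 0.616 for NACC1, 0.463 for BAX, 0.508 for IFI35, 0.640 for IFITM3, 0.636 for MRPS34 and 0.506 for PSMG3. Their transcripts had a GC content of 56.9% (IFITM3) to 64.5% (MRPS34). The ratio was 0.459 for TFB2M, 0.342 for SRD5A1, 0.634 for MYOF and 0.506 for RORA, which were called higher in TGFb1 over shCtrl at 1.56 for TFB2M, 2.36 for SRD5A1, 2.14 for MYOF and 1.72 for RORA. Their GC content was 35.8% (RORA) to 46.6% (MYOF).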

How the results depend on the processing

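No paired analysis was possible by replicate number because each condition has 1 library; the edgeR fit over all 4 libraries holds the hairpin as a term beside TGFb1. The alternatives were 3 scalings, pseudocounts of 1 and 5, GC removal, other minimum means and other intervals. The ratios of the named genes stayed inside their 95% intervals in 636 of 636 cases. Median log2 widths of the intervals ran from 0.47 to 1.86 over 5 bins by mean normalized count. These are wide beside the changes made, so staying inside is a weak check. In 1 case a ratio crossed 1, that of LMBR1L, at 0.996 with the GC trend removed against 1.06. The median log2 ratio of all genes shifted by -0.016 with upper quartile scaling and by less under the others. Of the 96 called named genes, 75 were still called with the GC trend removed and 86 or more under each other scaling or pseudocount. List medians moved by under 0.1 in 268 of 270 cases; with the GC trend removed, that of ligands and traps was 0.06 and that of apolipoproteins -0.02, against 0.09.

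Counts of calls depended on the minimum mean and the interval. Genes at least 1.5-fold higher and lower numbered 177 and 184 as reported, 104 and 99 at a mean of at least 50, 19 and 24 at a mean of at least 100, 322 and 391 with no interval required, 75 and 72 with a 99% interval, and 2 and 3 with the interval that holds for all genes together, which was chosen after seeing the data. At 2-fold, 40 and 59 as reported became 15 and 35 with a pseudocount of 5, 101 and 127 at a mean of at least 1, 5 and 3 at a mean of at least 50, 1 and 0 at a mean of at least 100, 25 and 26 with a 99% interval and 1 and 0 with the interval for all genes; those higher became 21 with the GC trend removed. A higher minimum mean leaves fewer genes. For TGFb1 over all 4 libraries edgeR called 4 genes as reported, 11 with a GC offset and DESeq2 called 0, with 23 at an unadjusted p under 0.05; the cause was not tested. Counts of TGFb1 over shCtrl stayed within 1.5 times. Depth limits the shPJA/TGFb1 library most, with 990698 reads.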
